A study of Mus musculus with 12 samples.

Results

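The genes described here encode the electron transfer chain of the mitochondrial inner membrane, from complex I to complex IV, with cytochrome c and the complex I assembly factors whose symbols begin with Ndufaf. They were chosen by symbol alone (Ndufa, Ndufb, Ndufc, Ndufs, Ndufv, Uqcr, Cox4i, Cox5, Cox6, Cox7 and Cox8, with Sdha, Sdhb, Sdhc, Sdhd and Cycs). Of 80 protein-coding mouse genes that fit, 73 had a probe on the array, and 70 of the 12319 genes tested were among them. The 70 comprised 60 ubiquitous subunits, the 3 muscle isoforms Cox6a2, Cox7a1 and Cox8b, the testis-type subunit Cox6b2 and 6 assembly factors (Ndufaf1, Ndufaf3, Ndufaf4, Ndufaf5, Ndufaf6 and Ndufaf7). Complex I contributed 35 tested subunits, complex II 4, complex III 8 and complex IV 16. Cox4i2, Cox7b2 and Cox8c had a probe that was well above background on 2, 1 and 0 of the 12 arrays, respectively, and were not tested. Ndufa11, Ndufa4l2, Ndufaf2, Ndufaf8, Ndufb1, Ndufb4b and Ndufb4c were not matched to a probe.

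Expression was measured on 12 one-colour Agilent arrays. The cells were C3H/10T1/2, fibroblasts of mouse embryo origin that can be turned into muscle by MyoD, a DNA-binding regulator that switches on myogenic genes. A line carrying a stable short hairpin against the homeodomain factor Six4 (shSix4) was compared with a line carrying a control hairpin (shLuc), and each was infected with a pBABE retrovirus that was either empty or encoded tagged MyoD. All cells were kept for 24 h in differentiation medium with 2% horse serum, starting 24 h after infection, which gave 4 groups of 3 arrays: shLuc with empty vector, shLuc with MyoD, shSix4 with empty vector and shSix4 with MyoD. Every group thus carries a hairpin, a retrovirus and the low-serum medium, each hairpin is represented by 1 line, and the share of infected cells was not stated. All 12 samples are also listed with 10% fetal bovine serum. The replicate number is also the slide, so each of the 3 slides held 1 array of every group. No label ties the 3 replicates to separate cultures, and the p-values therefore cover the spread among these arrays, which may be technical.

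Electrons enter the chain at complex I from NADH or at complex II from succinate, pass through complex III and the mobile carrier cytochrome c, and reach oxygen at complex IV, cytochrome c oxidase. Most subunits are made in every tissue. A few nuclear-encoded subunits of complex IV have a second gene used in heart and skeletal muscle, and as muscle matures Cox6a2, Cox7a1 and Cox8b add to or replace Cox6a1, Cox7a2 and Cox8a; Cox7a1 and Cox8b are also made in brown fat.

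Promoter sequence is shown for some of the members described below, taken from RefSeq (GRCm38.p6) as the 250 bases before the gene's start, 5' to 3' on the gene's strand. Cox6a2, a muscle isoform that was called in shLuc cells, is not among those shown. Cox8b was the member with the largest response, Cox8a is its ubiquitous counterpart, Cox7a1 is a muscle isoform with no called response in the fit without slides, and Ndufaf4 was the assembly factor that responded. Capitals mark CAGCTG, the E-box preferred by MyoD and myogenin, in the first 3 sequences and TGCGCATGC, the core of a nuclear respiratory factor 1 site, in the last.
Cox8b, chr7:140900447-140900696, minus strand: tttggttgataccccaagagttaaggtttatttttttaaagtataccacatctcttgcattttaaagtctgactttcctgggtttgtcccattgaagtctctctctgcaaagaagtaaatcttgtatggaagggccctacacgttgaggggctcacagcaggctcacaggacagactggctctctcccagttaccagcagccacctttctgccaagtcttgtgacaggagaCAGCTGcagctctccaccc
Cox8a, chr19:7217617-7217866, minus strand: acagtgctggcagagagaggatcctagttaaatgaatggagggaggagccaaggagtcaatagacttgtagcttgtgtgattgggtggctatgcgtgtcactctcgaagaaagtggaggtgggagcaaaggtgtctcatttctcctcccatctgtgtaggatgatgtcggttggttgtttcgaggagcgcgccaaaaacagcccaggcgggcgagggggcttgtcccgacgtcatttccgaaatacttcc
Cox7a1, chr7:30183921-30184170, plus strand: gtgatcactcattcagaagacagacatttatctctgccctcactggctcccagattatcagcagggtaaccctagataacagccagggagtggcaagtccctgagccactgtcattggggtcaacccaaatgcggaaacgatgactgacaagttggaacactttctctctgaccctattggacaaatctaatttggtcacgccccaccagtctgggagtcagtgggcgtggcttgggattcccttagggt
Ndufaf4, chr4:24897833-24898082, plus strand: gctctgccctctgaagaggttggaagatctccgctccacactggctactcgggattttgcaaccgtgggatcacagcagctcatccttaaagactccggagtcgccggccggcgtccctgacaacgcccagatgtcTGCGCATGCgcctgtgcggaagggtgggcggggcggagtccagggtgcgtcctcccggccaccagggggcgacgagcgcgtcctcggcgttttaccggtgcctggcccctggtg

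Each motif was searched on both strands of windows that run from 250 bases before to 50 bases after the start, with 58 of the 70 tested genes matched to at least 1 window and 60 windows in all. CAGCTG lay in 5 of these 60 windows (8.33%), against 16.3% of all 32851 windows in the table. Cox8b held it at 2 places, 1 of them in the stretch printed above at 19 bases before the start, and Cox7a1 held none. The other 4 windows with it belonged to Ndufa8, Ndufb10, Ndufs5 and Ndufv2. No CAGCTG was thus recorded for Cox6a2, which either held none or was among the tested genes without a window. The looser E-box CANNTG, which includes CAGCTG, lay in 70% of the members' windows and 72.3% of all windows. TGCGCATGC lay in 4 of the members' windows (6.67%, against 1.52% of all), those of Ndufa6, Ndufa8, Ndufaf4 and Uqcrc1. TCAGGTTTC, a MEF3 site of the kind bound by the Six4 protein family, lay in 2 windows, both of Ndufa7 (3.33%, against 0.429%), and TCAAGGTCA, an oestrogen-related receptor site, in that of Sdhd (1.67%, against 0.423%). These are matches of letters, and no binding was measured.

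Levels are log2 signals minus the 75th percentile of the same array, so a level below 0 is dimmer than that percentile, and levels of different genes cannot be set against each other. Changes are differences of group means from limma, in log2 units with the standard error, and a gene is called where its p-value, adjusted by Benjamini-Hochberg over all 12319 genes, lies under 0.05. The design's checks gave mixed values. Six4 was lower in the shSix4 line on each slide but did not pass the threshold (with MyoD by -1.17 ± 0.49, adjusted p = 0.557, or 0.0425 with the slide as a block; with empty vector by -0.92 ± 0.49, adjusted p = 0.999). Myod1 lay at 0.07, -0.23 and 1.23 in shLuc cells given MyoD and at -2.17, -0.86 and -0.23 in shSix4 cells given MyoD, so the line with the Six4 hairpin also carried the lower Myod1 signal, and the groups did not overlap, although the nearest arrays both lay at -0.23 (-1.45 ± 0.81, adjusted p = 0.837). Myog, the muscle regulator next in line after MyoD, rose in both lines (adjusted p = 1.39e-09 and 1.96e-09) and, given MyoD, differed between shSix4 and shLuc cells without passing (-1.15 ± 0.31, adjusted p = 0.192). All 11 skeletal muscle markers were above background on every array of both MyoD groups. Their summed level was 9.17 to 9.80 in shLuc and 7.68 to 8.45 in shSix4 cells with MyoD, and 3.61 to 5.80 over the empty-vector arrays. All 10 fibroblast markers were above background on all arrays, and in these bulk cultures fewer muscle cells and less muscle RNA per cell cannot be told apart.

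MyoD raised Cox8b and Cox6a2, muscle forms of cytochrome c oxidase, in shLuc cells. There the 60 ubiquitous subunits changed by -0.47 to 0.99, with a median of 0.19. The number of members called depended on whether the slide was fitted as a block. Of the 70 genes 4 were called higher (Cox8b, Cox6a2, Ndufaf4 and Ndufs3), against 4.71% of all genes tested, and 0 were called lower, against 1.56% of all genes. With the slide as a block the count was 12 higher, against 9.9% of all genes, and 0 lower, against 15.7%. The 8 genes added were Cycs, Ndufab1, Sdhd, Cox7a1, Ndufs1, Ndufv1, Ndufa10 and Cox6b1. In shSix4 cells 1 of the 70, Cox8b, was called higher (2.79% of all genes) and 0 lower (0.106%), with Ndufaf4 added under the block (5.7% of all genes higher, and 0 members lower against 2.59%). An unadjusted p under 0.05 was reached by 8 members in shLuc cells, all higher, against 19.3% of all genes, and by 5 in shSix4 cells, 4 higher and 1 lower, against 9.77%.

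Cox8b, the muscle form of the small subunit VIII, was the only member that went from below background to a clear signal. In shLuc cells it lay at -7.75, -7.09 and -8.05 with empty vector, not well above background on any array, and at 2.34, 1.40 and 1.27 with MyoD. In shSix4 cells it lay at -6.92, -7.67 and -7.85 with empty vector, again not well above background, and at -0.03, -0.18 and 0.39 with MyoD. Every MyoD array stood far above every empty-vector array in each line. The measured group means went from -7.63 to 1.67 in the control line and from -7.48 to 0.06 in the Six4 hairpin line. Set against the lowest signals that were well above background on the empty-vector arrays, Cox8b was at least 196-fold higher with MyoD in the control line and at least 43.2-fold higher in shSix4 cells. The measured change was 9.30 in shLuc (adjusted p = 6.66e-08) and 7.54 in shSix4 cells (adjusted p = 3.84e-07). These p-values belong to the measured change, which rests on empty-vector signals below background, and not to the bounds. Cox8b also passed the filter on dim probes only through the MyoD groups, where it was high. The measured change was 4.77 and 3.90 when median signals were corrected by normexp with an offset of 50 and without spots far dimmer than their surroundings. These lie under the bounds, which are 7.62 and 5.43 on the log2 scale, so the bounds hold for the processed signal, and the step that sets the size was not tested.

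Cox6a2, the muscle form of subunit VIa, rose with MyoD in the control line. Its levels in shLuc cells were -1.14, -0.85 and -1.41 with empty vector and 0.70, 0.66 and 0.86 with MyoD, a change of 1.87 ± 0.35 (adjusted p = 0.00704). In shSix4 cells they were 0.36, -1.06 and -0.95 with empty vector and -0.61, -0.77 and -0.11 with MyoD, a change of 0.05 ± 0.35 (adjusted p = 0.998). The shLuc groups did not overlap, whereas in shSix4 cells the highest of the 6 values was the empty-vector array of slide 1. Within slides the shSix4 change was -0.98, 0.29 and 0.84, and without that array it was 0.51.

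Cox7a1, the muscle form of subunit VIIa, was well above background on all 12 arrays. In shLuc cells it lay at -2.45, -2.88 and -3.22 with empty vector and at -1.55, -2.63 and -2.68 with MyoD. In shSix4 cells it lay at -2.52, -3.0 and -3.03 with empty vector and at -1.42, -2.52 and -2.82 with MyoD. The slide 1 array was the highest of each group, the groups overlapped, and MyoD exceeded empty vector on every slide in both lines. The change was 0.57 ± 0.40 in shLuc (adjusted p = 0.503, or 0.0443 with the slide as a block) and 0.60 ± 0.40 in shSix4 cells (adjusted p = 0.804, or 0.076).

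**Figure D1:**
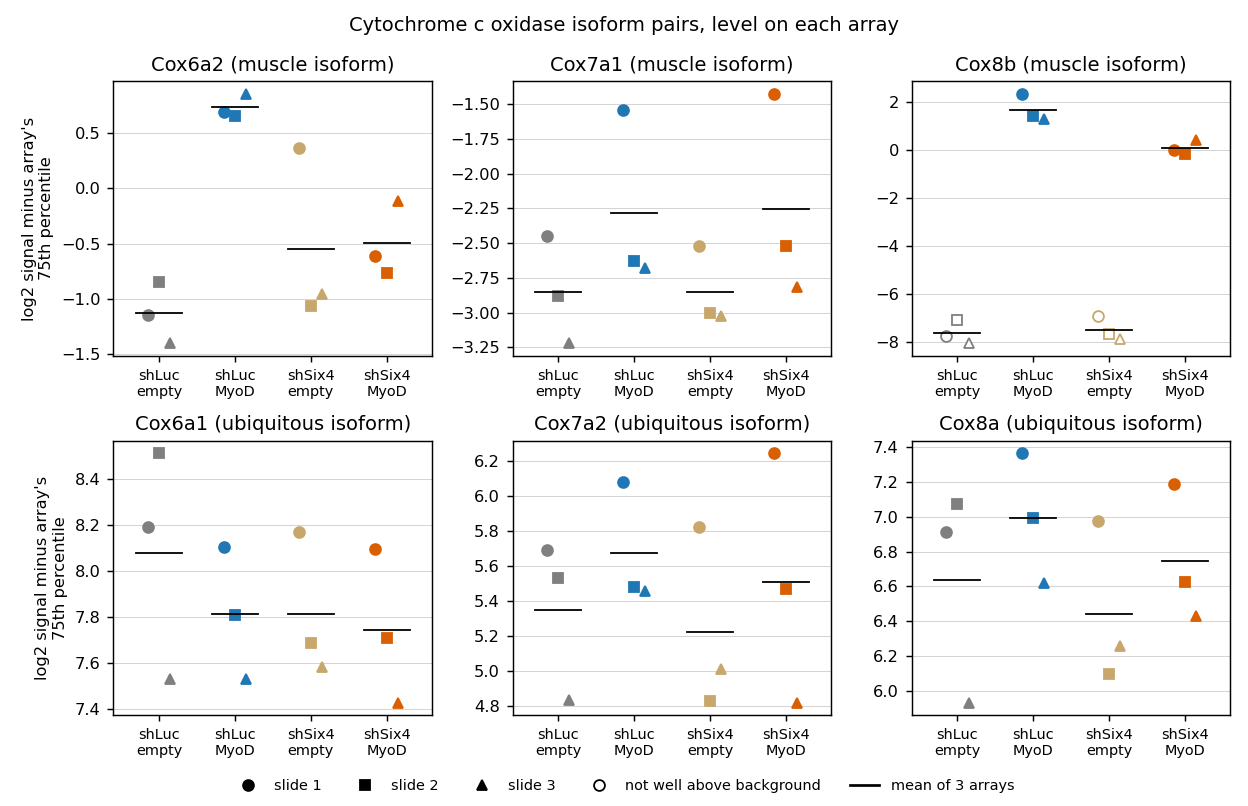
Levels (log2 signal minus the array's 75th percentile, vertical axes, a separate range for each gene) of the 3 muscle isoforms and their ubiquitous partners in the 4 groups, with 1 symbol per slide, open symbols for probes not well above background and a line for the mean of 3 arrays. Cox8b is open in both empty-vector groups and rises to group means of 1.67 and 0.06 with MyoD, the Cox6a2 groups are apart in shLuc cells and overlap in shSix4 cells, and the groups of each partner overlap.

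The ubiquitous partners moved little by comparison. In the order shLuc, shSix4, Cox6a1 changed by -0.26 ± 0.29 and -0.07 ± 0.29, Cox7a2 by 0.32 ± 0.39 and 0.29 ± 0.39, and Cox8a by 0.35 ± 0.36 and 0.30 ± 0.36, with none called. For the processed signal, with Cox8b at its bound, its change exceeded that of Cox8a by at least 7.26 in shLuc and 5.13 in shSix4 cells. The normexp changes of Cox8b given above lie under these values. Cox6a2 exceeded Cox6a1 by 2.14 in shLuc cells (1.93, 2.21 and 2.27) and by 0.12 in shSix4 cells (-0.90, 0.27 and 1.00). Cox7a1 and Cox7a2 changed by amounts that differed by 0.24 and 0.31, with 1 slide of opposite sign in each line. In the exact two-sided permutation test of 3 arrays against 3, the smallest p that can be reached is 0.1; that value was reached for Cox6a2 in shLuc cells, and Cox8b is not given a p here because its empty-vector levels lay below background. It was also reached between the lines, by Cox8b with MyoD (-1.37) and by Cox6a2 with MyoD (-1.17) and with empty vector (0.85), and after adjustment over the 12 isoform tests the lowest was 0.2.

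**Figure D2:**
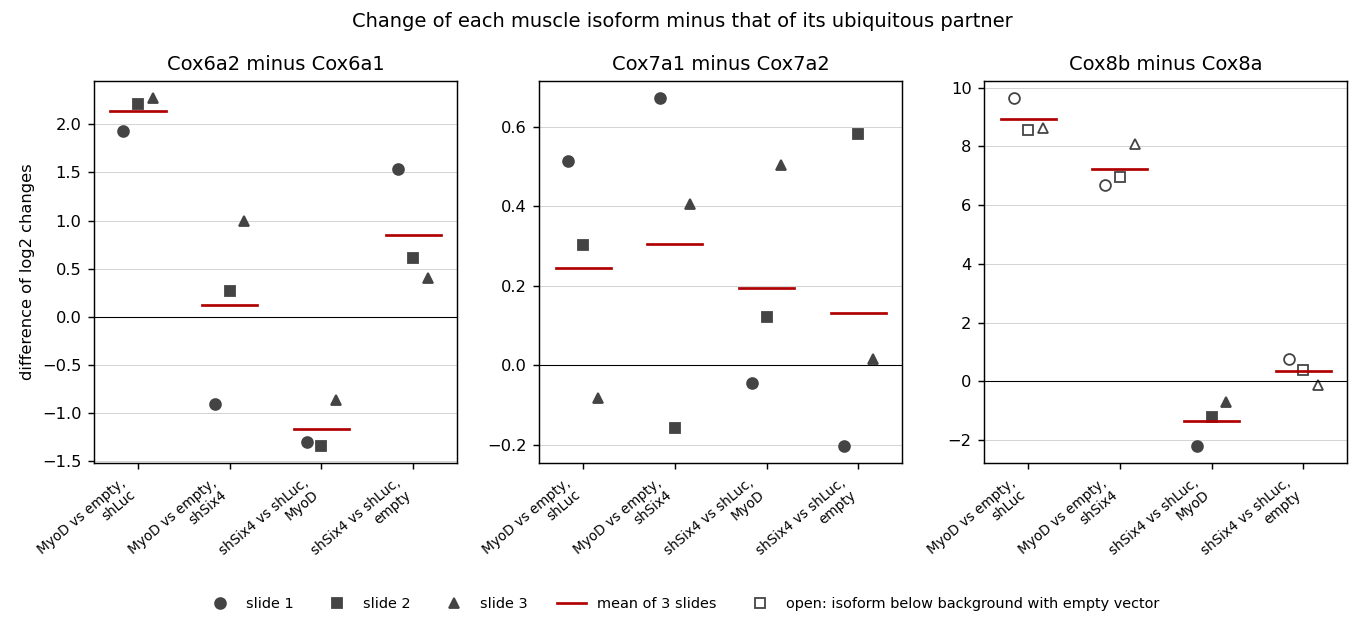
Change of each muscle isoform minus the change of its ubiquitous partner (difference of log2 changes, vertical axes of separate range) in 4 comparisons, with 1 symbol per slide, open where the isoform was not well above background with empty vector, and a red line for the mean. The open Cox8b points rest on signals below background and have no exact size, the points of Cox6a2 lie near 2 in shLuc cells and on both sides of 0 in shSix4 cells, and those of Cox7a1 stay within 0.67 of 0.

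The other tissue-restricted member, Cox6b2, known from testis, was dim but above background on all 12 arrays and changed by -0.32 ± 0.26 in shLuc and -0.03 ± 0.26 in shSix4 cells. Its ubiquitous partner Cox6b1 changed by 0.40 ± 0.22 (adjusted p = 0.37, or 0.0442 with the slide as a block) and 0.13 ± 0.22. Cox4i1 and Ndufa4, the partners of restricted genes that could not be tested, changed by -0.15 ± 0.27 and 0.21 ± 0.30 in shLuc cells and by 0.02 ± 0.27 and 0.20 ± 0.30 in shSix4 cells. The called members of complex IV in shLuc cells were Cox8b and Cox6a2, with Cox7a1 and Cox6b1 reaching the threshold only in the blocked fit.

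Among complex I genes the clearest change was in an assembly factor. Ndufaf4, which helps build the hydrophilic arm, lay at 1.11, 1.67 and 1.41 with empty vector and at 2.35, 2.65 and 2.48 with MyoD in the control line, a change of 1.10 ± 0.21 (adjusted p = 0.00767). In shSix4 cells it lay at 1.38, 1.41 and 1.17 with empty vector and at 2.18, 2.17 and 1.68 with MyoD, a change of 0.69 ± 0.21 (adjusted p = 0.149, or 0.0272 with the slide as a block). The groups did not overlap in either line, and 2 further Ndufaf4 probes changed by 0.83 and 1.53 in shLuc and by 0.24 and 0.66 in shSix4 cells. The other assembly factors did not pass: Ndufaf6 changed by 0.29 ± 0.20 and 0.49 ± 0.20, whereas Ndufaf3 (-0.35 ± 0.18 and -0.42 ± 0.18) and Ndufaf7 (-0.23 ± 0.15 and -0.33 ± 0.15), which methylates an arginine of a core subunit, lay below 0 on every slide in both lines.

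Ndufs3, a core subunit of that arm, lay at 4.09, 4.12 and 4.22 with empty vector and at 4.73, 4.94 and 4.68 with MyoD in shLuc cells. The groups did not overlap and the change was 0.64 ± 0.16 (adjusted p = 0.0374). The call was fragile: without 1 array it was lost for 10 of the 12 arrays, that is for every array except the slide 1 arrays of the shSix4 line, with adjusted p from 0.0343 to 0.128, and it was lost with no filter on dim probes (adjusted p = 0.0855). In shSix4 cells Ndufs3 changed by 0.25 ± 0.16 (adjusted p = 0.758). The subunits called only with the slide as a block in shLuc cells were Ndufab1, the mitochondrial acyl carrier protein (0.62 ± 0.18, adjusted p = 0.0749, or 0.0137 in the block), Ndufs1, which carries iron-sulphur clusters (0.46 ± 0.17, 0.171, or 0.0143), Ndufv1, which binds NADH (0.44 ± 0.26, 0.41, or 0.0184), and Ndufa10 (0.42 ± 0.15, 0.15, or 0.0203). All 35 complex I subunits together had a median change of 0.13 in shLuc cells, with 23 above 0, and 0.09 in shSix4 cells, with 26 above 0.

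No gene of complexes II and III passed in the fit without slides, nor did the carrier, which had the highest change of the 60 ubiquitous subunits. Sdhd, a membrane anchor of succinate dehydrogenase, lay at 3.85, 4.53 and 4.14 with empty vector and at 4.86, 4.73 and 4.79 with MyoD in shLuc cells (0.62 ± 0.19, adjusted p = 0.0924, or 0.0311 with the slide as a block), and changed by 0.35 ± 0.19 in shSix4 cells. The 4 complex II genes had medians of 0.35 and 0.08 in the 2 lines, and the 8 complex III genes 0.26 and 0.21, with 0 called among the latter in any of these fits. Cycs, cytochrome c itself, lay at 5.22, 4.77 and 4.01 with empty vector and at 6.26, 5.23 and 5.48 with MyoD in shLuc cells. Its groups did not overlap there, and it changed by 0.99 ± 0.52 (adjusted p = 0.347, or 0.0109 with the slide as a block). In shSix4 cells Cycs lay at 5.49, 3.94 and 4.0 with empty vector and at 6.24, 4.85 and 4.78 with MyoD, a change of 0.81 ± 0.52 (adjusted p = 0.78, or 0.052). Its 2 other probes changed by 1.16 and 1.20 in shLuc and by 0.99 and 1.00 in shSix4 cells.

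**Figure D3:**
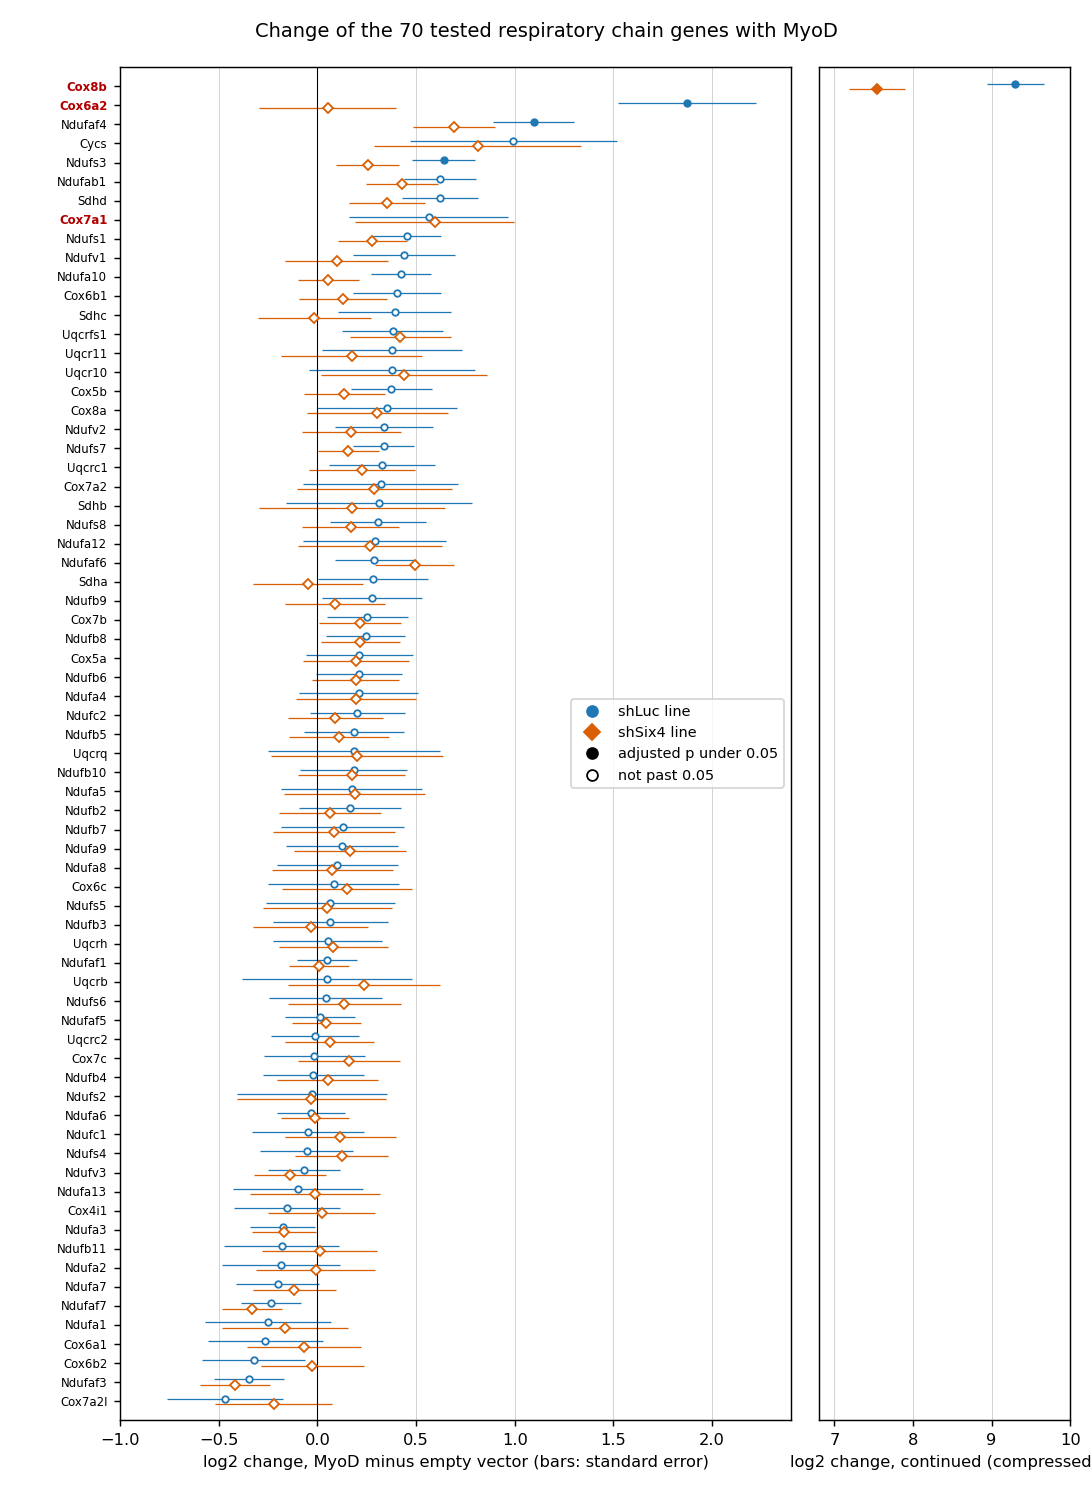
Log2 change with MyoD (horizontal axis, continued in compressed form in the right panel) of the 70 tested genes in the shLuc line (circles) and the shSix4 line (diamonds), ordered by the shLuc change, with standard errors as bars and filled symbols where the adjusted p is under 0.05. Cox8b stands alone at 9.30 and 7.54, 4 circles and 1 diamond are filled, and the ubiquitous subunits lie between -0.47 and 0.99 in shLuc cells.

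The 60 ubiquitous subunits lay slightly to the higher side of all genes after MyoD. Their median change in shLuc cells was 0.19 (quartiles -0.02 and 0.34), with 43 of 60 above 0, whereas the median of all genes was -0.14, with 35.1% above 0. In shSix4 cells it was 0.13 with 47 of 60 above 0, against -0.06 and 42% for all genes. The shift did not run the same way on all slides: the median of the ubiquitous subunits was 0.31, -0.14 and 0.36 on slides 1, 2 and 3 in the control line and 0.21, 0.25 and -0.09 in the Six4 hairpin line. Of all 70 members, 54 were above 0 in shSix4 cells, and 21 were without the MyoD array of slide 1. Within shLuc cells 24 of the 70 were above 0 on all 3 slides, against 19.3% of all genes, and 3 were below 0 on all, against 40.4%. In shSix4 cells these counts were 24, against 20%, and 2, against 30.2%. Groups that did not overlap were seen for 11 members in the higher direction, against 10.2%, and 1 in the lower, against 15.8%, in shLuc cells, and for 6 and 2, against 7.11% and 7.35%, in shSix4 cells.

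The medians varied between arrays of the same group. Centred on each gene's mean over the 12 arrays, the median of the ubiquitous subunits was 0.16, 0.26 and -0.36 on the shLuc empty-vector arrays of slides 1, 2 and 3 and 0.38, 0.09 and -0.02 on the shLuc MyoD arrays. It was 0.18, -0.34 and -0.20 on the shSix4 empty-vector arrays and 0.37, -0.08 and -0.29 on the shSix4 MyoD arrays. Arrays of the same group thus lay further apart than the MyoD medians above. The 4 arrays of slide 1 all lay above 0, and on slide 2 the shLuc empty-vector array was the high one.

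**Figure D4:**
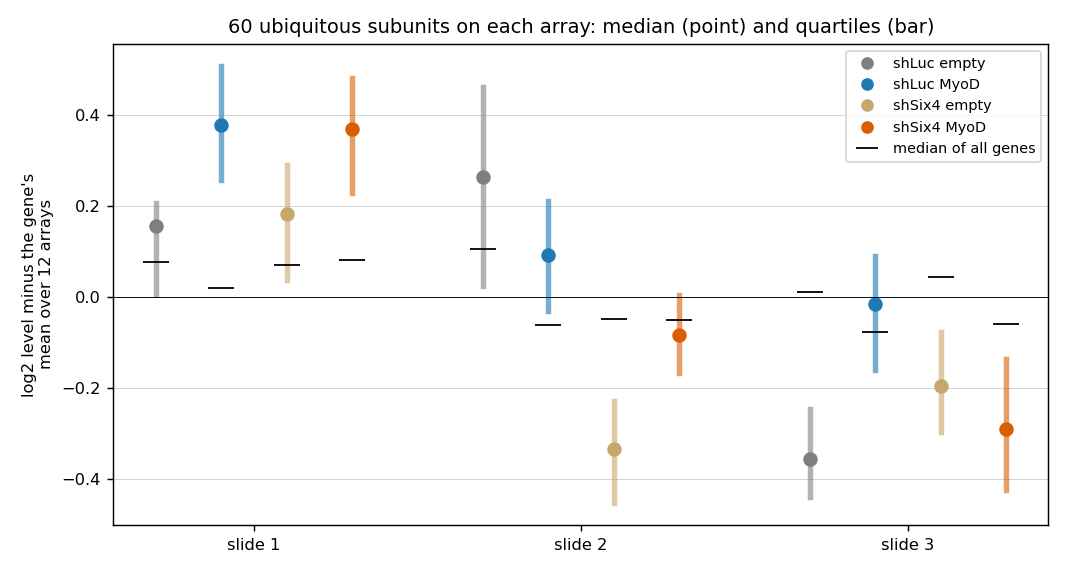
Median (points) and quartiles (bars) of the 60 ubiquitous subunits on each array, as log2 level minus each gene's mean over 12 arrays (vertical axis), by slide and coloured by group, with black dashes for the median of all genes tested. Medians run from -0.36 to 0.38, all 4 arrays of slide 1 lie above 0, and the order of the groups differs between slides.

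The shSix4 line was compared with the shLuc line at each vector. With MyoD, 0 of the 70 genes passed in limma's test (0.0649% of all genes were called higher and 0.162% lower), and 3 had an unadjusted p under 0.05, against 7.81% of all genes. These 3 were Cox8b, Cox6a2 and Ndufaf4, all lower in the shSix4 line. Cox8b differed by -1.61 ± 0.36 (adjusted p = 0.114), with differences of -2.37, -1.58 and -0.88 on the 3 slides, and passed after quantile normalization (adjusted p = 0.0374) and with the slide as a block (adjusted p = 0.0293). In the blocked fit it was the 1 member called lower, against 2.58% of all genes, and 0 were called higher, against 1.75%. Cox6a2 differed by -1.24 ± 0.35 (adjusted p = 0.213, or 0.0737 in the block) and by -1.31, -1.43 and -0.97 on the slides. Ndufaf4 differed by -0.48 ± 0.21 (adjusted p = 0.586). The groups did not overlap for any of these 3 genes; 5 of the 70 (these and Ndufaf3 and Ndufa10) had groups that did not overlap in the lower direction, against 6% of all genes, and 0 in the higher, against 5.93%. Cox7a1 differed by 0.03 ± 0.40. The lower summed level of the skeletal muscle markers and the lower Myod1 signal in the same shSix4 arrays moved with these differences, and their part in them was not tested.

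Most subunits lay slightly lower in the shSix4 line with MyoD. Of the 70 genes, 10 were above 0, against 54.5% of all genes, with a median of -0.15 against 0.03 for all genes. On all 3 slides 31 were below 0, against 18.3% of all genes, and 1 above, against 24.3%. The ubiquitous median was -0.02, -0.18 and -0.26 on slides 1, 2 and 3. The count above 0 moved with single arrays: 35 of the 70 were above 0 without the shLuc MyoD array of slide 1 and 31 without the shSix4 MyoD array of slide 3, whereas 5 were above 0 without the shLuc MyoD array of slide 2, 17 without the shSix4 MyoD array of slide 2 and 3 without the shSix4 MyoD array of slide 1. With normexp correction 46 of the 70 lay above 0, and the ubiquitous median minus that of all genes was 0.09 in place of -0.18, so this direction turned with that setting; fitted without spots far dimmer than their surroundings, normexp gave 12 above 0. Cox7a2l, a relative of Cox7a2 involved in joining complexes III and IV, was the highest at 0.18 ± 0.30, with its lowest level of 12, 3.37, on the shLuc MyoD array of slide 2. Cox4i1 (0.14 ± 0.27) and Ndufaf6 (0.14 ± 0.20) followed.

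With empty vector, 0 of the 70 passed in limma's test (0.00812% of all genes higher, 0.0487% lower), and 0 had an unadjusted p under 0.05, against 4.45% of all genes. With the slide as a block the count was still 0, against 0.146% higher and 0.495% lower. Here Cox6a2 lay higher in the shSix4 line (0.58 ± 0.35), and by 1.51, -0.22 and 0.45 on the slides. Sdhc and Sdha of complex II followed and differed by 0.30 ± 0.29 and 0.24 ± 0.28. The lowest were Uqcrb of complex III (-0.43 ± 0.38) and the complex I subunits Ndufa5 (-0.37 ± 0.36) and Ndufb4 (-0.31 ± 0.25), with values of -1.25, -1.08 and -0.94 on slide 2 and values near 0 on the other slides. In all, 16 of the 70 lay above 0, against 45.9% of all genes, with a median of -0.11 against -0.03, and the ubiquitous median was 0.06, -0.64 and 0.17 on the 3 slides. On all 3 slides 2 members were above 0, against 14.9% of all genes, and 4 below, against 18.4%. The groups did not overlap for 1 member, Ndufs3, in the higher direction, against 3.29%, and 0 in the lower, against 5.01%. The number above 0 went from 16 to 36 without the shLuc array of slide 2, to 40 without the shSix4 array of slide 2 and to 9 without the shLuc array of slide 3. It was 25 after quantile normalization and 65 with normexp correction, or 20 when normexp was fitted without spots far dimmer than their surroundings.

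Whether MyoD acted differently in the lines was tested as an interaction. In limma's test 0 of the 70 genes passed, as did 0% of all genes, and 2 members had an unadjusted p under 0.05, against 2.02% of all genes. These were Cox6a2 (-1.82 ± 0.49, adjusted p = 1) and Cox8b (-1.76 ± 0.51, adjusted p = 1), and on each slide the response of both was smaller in shSix4 cells (-2.82, -1.22 and -1.43, and -3.20, -0.99 and -1.08). For Cox8b this value rests on empty-vector levels below background. Sdhc was next (-0.41 ± 0.41), and at the other end were Cox6b2 (0.30 ± 0.37), Cox7a2l (0.25 ± 0.42) and Ndufaf6 (0.20 ± 0.28). The 60 ubiquitous subunits had a median of -0.02, against 0.07 for all genes. Of the 70 members 28 were above 0, against 61.2% of all genes, 2 were above 0 on all 3 slides, against 19.6%, and 9 were below on all, against 10.8%. Without 1 array at a time the count above 0 ran from 7, without the shLuc empty-vector array of slide 2, to 51, without that of slide 3, and it was 9 with normexp correction.

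Genes that work beside the chain were read from 4 lists, drawn up with earlier results of these data known. Among 37 tested assembly factors and carriers outside the symbol rule, MyoD in shLuc cells raised Cyc1, the cytochrome c1 of complex III that hands electrons to cytochrome c, from 3.83, 3.33 and 3.44 to 4.86, 4.45 and 4.54 (1.08 ± 0.24, adjusted p = 0.022). In shSix4 cells Cyc1 went from 3.93, 3.36 and 3.50 to 4.62, 3.91 and 4.34 (0.69 ± 0.24, adjusted p = 0.27, or 0.00465 with the slide as a block). The list as a whole had a median of -0.09 in shLuc cells, with 1 called higher, against 4.71% of all genes, and 0 lower, against 1.56%. With the slide as a block 4 were called higher in the control line, against 9.9%, and 2 lower, against 15.7%, and 2 were higher in the Six4 hairpin line, against 5.7%. Those added in the control line were Cox17, a copper chaperone of complex IV (0.90 ± 0.44, adjusted p = 0.298, or 0.00413), Uqcc1 (0.62 ± 0.21, 0.124, or 0.0188) and Foxred1 (0.47 ± 0.25, 0.354, or 0.0256) on the higher side and Tmem126b (-0.45 ± 0.15, 0.12, or 0.0223) and Surf1 (-0.47 ± 0.17, 0.151, or 0.0266) on the lower. In the Six4 hairpin line Cox17 changed by 0.67 ± 0.44 (adjusted p = 0.791, or 0.034). None of 14 tricarboxylic acid cycle genes and 18 ATP synthase genes was called by limma in either line, and 2 and 3 of them, all higher, had an unadjusted p under 0.05 in shLuc cells, against 19.3% of all genes, and 0 in shSix4 cells, against 9.77%; their medians were 0.39 and 0.18 in the control line and 0.14 and 0.17 in the Six4 hairpin line. With the slide as a block, 6 and 3 of them were called higher in shLuc cells, against 9.9% of all genes, and the changes included those of Idh3a (0.77 ± 0.22, adjusted p = 0.0682, or 0.00948), Sucla2 (0.68 ± 0.22, 0.107, or 0.0167), Atp5g3 (0.64 ± 0.24, 0.175, or 0.0078) and Atp5md (0.52 ± 0.30, 0.386, or 0.0412).

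Among 18 tested regulators of mitochondrial biogenesis, Ppargc1b, a transcriptional coactivator of mitochondrial genes, rose most. It lay at -4.37, -3.96 and -4.25 with empty vector and at 1.27, 1.44 and 1.54 with MyoD in the control line (5.61 ± 0.24, adjusted p = 8.8e-08). In shSix4 cells it lay at -4.22, -4.0 and -3.42 and at 0.44, 1.03 and 0.85 (4.65 ± 0.24, adjusted p = 5.73e-07). Polrmt, the mitochondrial RNA polymerase, rose by 0.64 ± 0.16 in shLuc cells (adjusted p = 0.0355) and changed by 0.37 ± 0.16 in shSix4 cells (adjusted p = 0.445). Ppargc1a, the related coactivator known from exercised muscle and brown fat, was above background on 6 of 12 arrays and was not called in any comparison. In all, 2 of the 18 were called higher in shLuc cells, against 4.71% of all genes, or 4 with the slide as a block, against 9.9%. The block added Tfam, the mitochondrial transcription factor A (0.61 ± 0.31, adjusted p = 0.324, or 0.0437), and Pprc1 (0.45 ± 0.19, 0.22, or 0.0161). In shSix4 cells 1 was called higher in both fits, against 2.79% and 5.7% of all genes. The list's median was 0.10 in shLuc and 0.15 in shSix4 cells, against -0.14 and -0.06 for all genes.

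**Figure D5:**
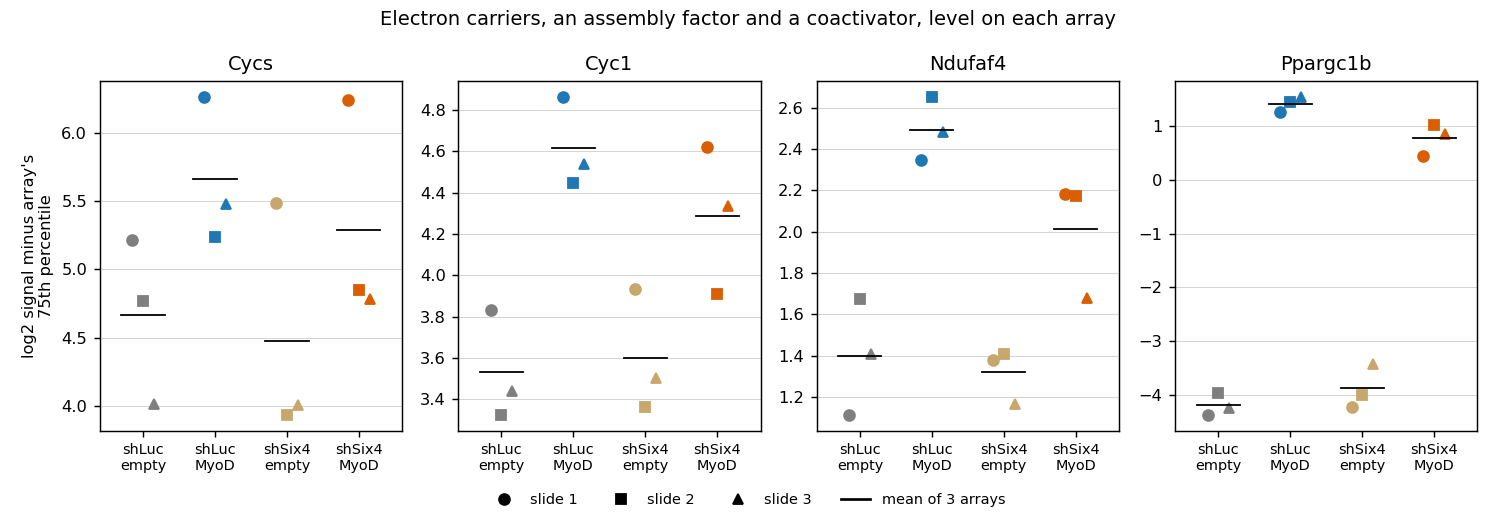
Levels (log2 signal minus the array's 75th percentile, vertical axes of separate range) of Cycs, Cyc1, Ndufaf4 and Ppargc1b in the 4 groups, with 1 symbol per slide and a line for the mean of 3 arrays. Ppargc1b goes from about -4 to between 0.44 and 1.54 with MyoD, Ndufaf4 and Cyc1 separate by vector in shLuc cells, and the Cycs points of slide 1 lie highest in every group.

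Markers of other cell types were read on the same arrays, since Cox7a1 and Cox8b are also made in brown fat and the muscle isoforms in heart. Ucp1, Elovl3 and Prdm16 of the 8 adipocyte markers were above background on no array of any group. Pparg and Fabp4 of the same list were above background on all 12 arrays, and Cidea on 10. The summed level of the list was 2.54 to 2.96 over the empty-vector arrays and 1.60 to 2.37 over the MyoD arrays. The part of this list in the isoform changes was not tested. Of the 8 heart markers, Myh6 was not well above background on any empty-vector array and was on 5 of the 6 arrays with MyoD. With MyoD it was at least 45.4-fold higher in shLuc and at least 3.57-fold higher in shSix4 cells. Its measured means went from -7.73 to -0.44 in shLuc (adjusted p = 3.29e-06) and from -7.31 to -3.54 in shSix4 cells (adjusted p = 0.00101). The other heart markers tested did not rise together with Myh6. Nppa and Nppb were lower with MyoD on every slide in shLuc cells and mixed in shSix4 cells. Tnni3 was higher with MyoD on every slide in shLuc cells and lower on every slide in shSix4 cells. Nkx2-5 and Gata4 were not higher on all slides in either line. The summed level of the heart list was -2.42 to -1.82 over the empty-vector arrays and -1.84 to 0.37 over the MyoD arrays, and its part in the isoform changes was not tested. The 4 leukocyte and endothelial markers with a probe had summed levels from -5.53 to -4.31 over the empty-vector arrays and -4.42 to -3.60 over the MyoD arrays, with Ptprc and Pecam1 above background on no array of the shSix4 line. Vwf, an endothelial clotting factor, was called higher with MyoD in both lines. It was above background on 7 of 12 arrays, and on every array only in the shLuc MyoD group. The sizes of its changes thus rest partly on signals below background. Its levels in the control line were -6.02, -5.16 and -6.01 with empty vector and -4.40, -4.29 and -4.02 with MyoD (1.5 ± 0.36, adjusted p = 0.0298). In the Six4 hairpin line Vwf was not well above background with empty vector. Its mean with MyoD was at least 1.29-fold higher, although not every MyoD array of that line was above background. Its measured means there went from -7.02 to -5.01 (adjusted p = 0.00825). The part of this list in the isoform changes was not tested.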

How the data were processed

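Total RNA (300 ng) of 12 samples was labelled and read on one-colour arrays. Scanner files with spot intensity values were deposited; the authors' processed signal is background-corrected and detrended within the array by Agilent Feature Extraction 11.5.1.1, per the file headers (the submitters' processing notes name 10.5.1.1). The authors' deposited log2 table of normalized values holds probes of 7 of the 70 genes tested here, correlated with the scanner values at 0.9994 to 0.9998, and was run as an alternative over the 1930 genes it holds, with no count of members; its column medians are 8.66 to 8.72, and its name says quantile normalization without further detail. No spot was saturated, and 22359 to 27470 probes per array were well above background; the number of arrays limits the precision.

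Control spots and spots marked as outliers were left out (156 genes have missing values; Uqcrb lacks the shLuc MyoD array of slide 2, and Myod1 both empty-vector arrays of slide 3). Levels are log2 of the processed signal minus each array's 75th percentile. A probe was kept if well above background on all 3 arrays of a group, and the brightest such probe stood for a gene. Some genes, among them Cox8b, Myh6 and Vwf, were kept only through MyoD groups. limma 3.58.1 (R 4.3.3) fitted 4 group means and 5 contrasts with Benjamini-Hochberg adjustment over 12319 genes; every adjusted p of a single gene is limma's, and the isoform pairs have an exact permutation test. Bounds ("at least") set the brighter group's mean against the lowest signal well above background on each array of the dimmer group. The fit was tested on simulated data with independent noise on each array, so that test does not cover deviations shared within a slide. Same-slide arrays deviated together from their group means (correlations 0.278 to 0.819 over 18 pairs), so replicate numbers pair the samples by slide, as the file headers give it, and a fit with the slide as a block is printed where it changes a call.

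Alternatives were quantile normalization, median centring, normexp, filters on dim probes, averaged probes, outlier spots kept, the block, and each array left out. Named genes were the muscle isoforms, other restricted forms and their partners, called members, the 3 highest and 3 lowest members per comparison, called genes or else the 2 largest changes of each other list, and the label checks; others named with values were chosen after their values were seen. Members and lists were chosen with earlier results of these data known. Promoters come from RefSeq (GRCm38.p6).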

Additional observations from a re-analysis of the deposited data

Results flagged for a closer look

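Cox6b2 and Ndufa10 were picked from the 70 members because they differed between the hairpin lines in opposite directions with and without MyoD on all 3 slides. The share of all genes with this pattern was not counted. Cox6b2, the testis-type form of subunit VIb, was higher in the shSix4 line with MyoD (0.11) and lower with empty vector (-0.19). With MyoD its slide differences were 0.02, 0.30 and 0.01. Ndufa10, a complex I subunit, was lower with MyoD (-0.28; -0.21, -0.25 and -0.39 on the slides) and higher with empty vector (0.084). With empty vector its slide differences were 0.01, 0.19 and 0.05. The difference itself was tested by limma's interaction term and did not pass: it was 0.30 ± 0.37 for Cox6b2 and -0.37 ± 0.22 for Ndufa10, each with an adjusted p of 1.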

How the results depend on the processing

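With the replicate block, that is the slide, 12 members rather than 4 were higher after MyoD in shLuc cells, 2 rather than 1 in shSix4 cells, and 1 rather than 0 was lower in the shSix4 line with MyoD; these are the changed calls printed in the report, and the block changed no other call of a named member. Quantile normalization also gave 1 member lower there (Cox8b). With normexp correction 0 members were higher in shLuc and 0 in shSix4 cells, against 86 and 49 of the 12319 genes tested. That setting left 3 arrays with raised dim values: the log2 25th percentile was 9.98 and 9.49 on the slide 2 arrays of shLuc cells with empty vector and MyoD and 7.70 on the slide 3 array of shSix4 cells with empty vector, against 6.0 to 6.09 elsewhere, and these arrays hold 7, 8 and 2 spots more than 50 units dimmer than their local background. Fitted without those spots, an alternative chosen after seeing the data, normexp gave 3 and 1 members higher, against 435 and 234 of the 12319 genes. Keeping probes above background on all arrays gave 0 members higher in shSix4 cells, since Cox8b is then not tested. Leaving out 1 array at a time gave 3 to 5 members higher in shLuc cells, against 437 to 625 of the 12319 genes, and 1 in shSix4 cells, against 263 to 346. It gave 0 members in either direction in the comparisons of the lines, where at most 33 of all genes were called in a direction. Of 2310 settings of single genes, 2287 stayed on the same side of the threshold, 17 lost a call, most of them Ndufs3, and 6 gained one. Most of the 2287 were results called neither in the main fit nor in the alternative, so this total says little about the calls. The 17 losses all fell on the 4 calls in shLuc cells and the 1 in shSix4 cells. No called value changed sign. Direction was not compared where a gene was called neither in the main fit nor in the alternative. The authors' deposited table, limited to 1930 genes and 7 members, gave no count of members; MyoD gave 94 genes higher and 55 lower there in the control line and 43 and 0 in the Six4 hairpin line. Signals below background limit the size of the Cox8b change.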
